A study of Bos taurus with 20 samples.

Results

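Mesothelial and simple-epithelial marker genes were followed across clonal cell populations grown from the fat of calves. The 10 genes were KRT7, KRT8, KRT18, KRT19, MSLN, UPK3B, UPK1B, WT1, LRRN4 and BNC1, taken by symbol from the 33063 named genes of a table of raw read counts, and all 10 were found in it. RNA-seq was run on 20 clones of bovine mesenchymal stem cells (MSCs, plastic-adherent stromal cells that can form fat, bone and cartilage), of which 10 were adipogenic (A clones) and 10 non-adipogenic (N clones). A clones formed adipocytes when given differentiation medium and N clones did not, and the RNA was taken from cells that had not been differentiated. From animals 17 and 20 there was a single clone of either type, and from animals 22 and 23 there were 4 A and 4 N clones per animal.

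All animals were Holstein Friesian x Aberdeen Angus calves of 1 to 6 months, and the cells came from visceral fat of the inguinal or perirenal region. All clones were grown with 10% FBS and bFGF, and the labels name no transgene or targeted deletion. After sorting, the single cells also received conditioned medium from autologous MSC cultures, that is, from cells of the same animal. Each clone is the offspring of 1 sorted cell, so the clones of an animal share their donor and their MSC preparation. A clone is named by its type, animal and clone number, as in N 22-5. A 22-11 and A 22-16 were the most alike of the 90 pairs of clones of 1 type, with a chi-square per degree of freedom of 19.8 between their counts against 46.0 for the next pair, and were counted as separate clones.

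Mesothelium is the single layer of flat cells that covers the organs and walls of the body cavities, including the surface of visceral fat. It arises from mesoderm yet makes the keratins of simple epithelia, and it expresses WT1 and mesothelin. Mesothelial cells can lose their epithelial form and take on a mesenchymal one, in culture as in scarring. KRT8 and KRT7 are type II keratins and KRT18 and KRT19 are type I keratins, and a filament needs 1 partner of each type. KRT8, KRT18 and KRT7 lie on the same chromosome in the RefSeq annotation of assembly ARS-UCD2.0, with 1 gene between KRT18 and KRT8.

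Library totals ran from 14615493 to 43111345 counts. A level is given in CPM, the usual unit of read counts relative to library size, scaled between libraries by edgeR's TMM method. A count of 0 allows a level of up to 3 counts, which was 0.0764 to 0.216 CPM depending on the library, and this limit covers counting error only. CPM is not corrected for gene length, so levels were compared between clones and not between genes. Clone N 22-18 had the deepest library, with 43111345 counts.

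N 22-5 and N 22-9 stood apart from the other 18 clones. The 10 genes summed to 10400 CPM in N 22-5 and to 7320 CPM in N 22-9. The next clones were A 22-11 at 1220 CPM, A 22-16 at 1060 CPM and N 23-10 at 639 CPM, and the lowest was A 23-14 at 8.97 CPM. All 10 genes were above 1 CPM in N 22-5, N 22-9, A 22-11 and A 22-16, and in no other clone. The 2 highest clones were N 22-5 and N 22-9 for 8 of the 10 genes, and 1 of them was the highest for 9. Over all 12900 genes tested, 1 of them was the highest for 2166. How many of all genes had both as the 2 highest clones was not counted. Results are therefore given with and without these clones, a choice made after their values were seen.

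**Figure D1:**
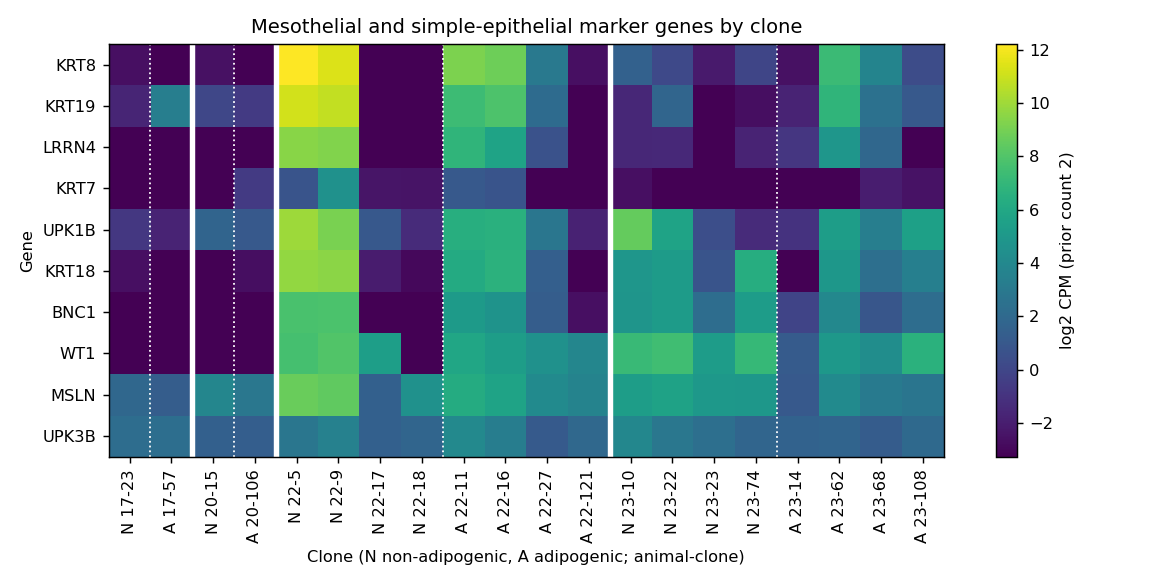
Level of the 10 genes (rows) in the 20 clones (columns), as log2 CPM with a prior count of 2, with clones ordered by animal and type. N 22-5 and N 22-9 are brightest for KRT8, KRT19, LRRN4 and KRT18, and WT1 and BNC1 are at the lowest shade in all 4 clones of animals 17 and 20.

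KRT8, a type II keratin typical of simple epithelia, covered the widest range of the 10 genes on the log2 scale. It was at 4780 CPM in N 22-5 (84633 counts) and 2730 CPM in N 22-9 (45433 counts). The A clones 22-11, 22-16 and 23-62 followed at 585, 446 and 159 CPM. A 23-68 was at 13.3 CPM and A 22-27 at 7.88 CPM. The remaining 13 clones held between 0 and 48 counts, with the highest at 2.83 CPM in N 23-10. N 22-5 and N 22-9 were thus above every A clone, while the other 8 N clones were below the 5 highest A clones.

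KRT18, the usual partner of KRT8, was at 824 CPM in N 22-5 and 727 CPM in N 22-9. Among A clones it reached 104 CPM in A 22-16, 75.1 CPM in A 22-11, 30.2 CPM in A 23-62 and 10.6 CPM in A 23-108. It was also present in N 23-74 at 82.1 CPM, in N 23-22 at 37.3 CPM and in N 23-10 at 29.6 CPM, where KRT8 was at 0.875, 1.01 and 2.83 CPM. KRT18 was thus found in N clones of animal 23 in which KRT8 was low. In the 8 clones with no more than 3 counts of KRT18, KRT8 had no more than 1 count.

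The balance of the 2 keratins fell into separate ranges. KRT8 made up 85.3% of the KRT8 and KRT18 counts in N 22-5 (95% exact Clopper-Pearson interval 85.1 to 85.5%), 79.0% in N 22-9 (78.6 to 79.3%), 88.6% in A 22-11 (88.2 to 89.1%) and 81.1% in A 22-16 (80.3 to 81.9%). The share was 84.0% in A 23-62 (82.7 to 85.3%), 75.5% in A 22-27 (68.0 to 81.9%) and 72.2% in A 23-68 (66.2 to 77.6%). In the 4 N clones of animal 23 the share was 1.05% in N 23-74 (0.626 to 1.66%), 2.64% in N 23-22 (1.52 to 4.25%), 8.74% in N 23-10 (6.52 to 11.4%) and 7.14% in N 23-23 (0.877 to 23.5%). A 23-108 was at 9.94% (6.90 to 13.7%). No clone lay between 9.94% and 72.2%, and the 8 other clones had too few counts of both genes for a share. The low range held 4 of the 4 N clones and 1 A clone of animal 23, so within that animal the 2 keratins did not keep a fixed ratio. The intervals cover counting error only, and the share depends on the lengths of both transcripts.

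**Figure D2:**
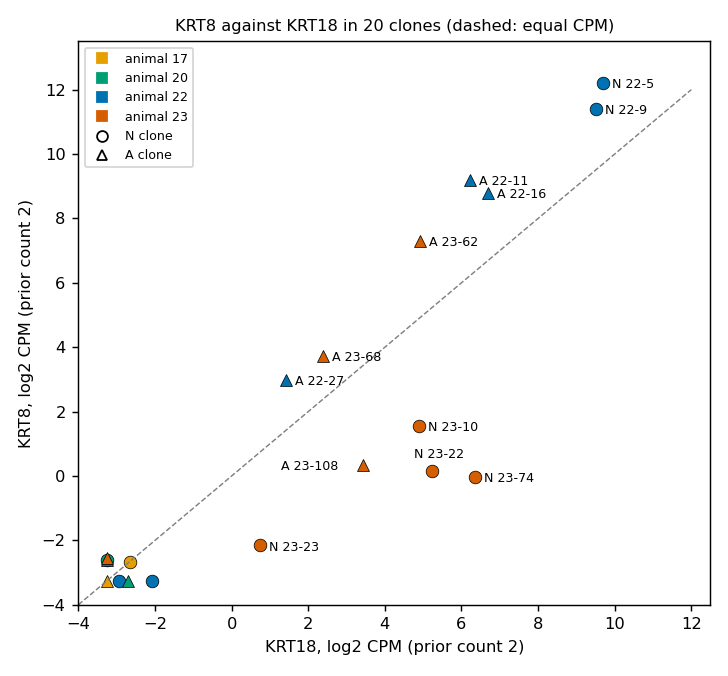
KRT8 (y axis) against KRT18 (x axis) in each of the 20 clones, both as log2 CPM with a prior count of 2, with circles for N clones, triangles for A clones and colours for animals. The dashed line marks equal CPM. Of the 12 clones above 0 on the x axis, 7 lie above it and the 4 N clones of animal 23 and A 23-108 lie below it.

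KRT19, the smallest type I keratin, followed KRT8 more than KRT18. It was at 2260 CPM in N 22-5 and 1810 CPM in N 22-9, then at 234 CPM in A 22-16, 163 CPM in A 22-11 and 115 CPM in A 23-62. In the N clones of animal 23 it was between 0 and 3.35 CPM. A 17-57 was at 10.1 CPM with 148 counts, although KRT8, KRT18 and KRT7 had 0 counts there. KRT7, the other type II keratin, was nearly absent. It had 395 counts in N 22-9 (23.7 CPM), 55 in A 22-11, 28 in N 22-5, 25 in A 22-16 and 11 in A 20-106, and no more than 3 in the other 15 clones.

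Among the surface proteins, mesothelin and uroplakin 3B were counted in all 20 clones. MSLN, which encodes the cell-surface antigen mesothelin, was at 418 CPM in N 22-5 and 344 CPM in N 22-9. In the other 8 N clones it was between 2.73 and 50.0 CPM, and in the 10 A clones between 1.96 and 75.8 CPM with a median of 10.5 CPM. In animal 23 it was at 30.1 to 50.0 CPM in the 4 N clones and at 1.96 to 17.9 CPM in the 4 A clones. In animal 22, N 22-17 at 2.73 CPM was below every A clone. UPK3B, a uroplakin also used as a mesothelial marker, varied least of the 10 genes. Its N clones ran from 2.64 to 14.9 CPM and its A clones from 2.10 to 16.5 CPM, and the highest was A 22-11.

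UPK1B, a tetraspanin of the uroplakin family, was at 977 CPM in N 22-5, 552 CPM in N 22-9 and 376 CPM in N 23-10. N 23-22 was at 51.9 CPM, while N 23-23 and N 23-74 of the same animal were at 1.26 and 0.292 CPM. The A clones ran from 0.183 to 93.7 CPM with a median of 8.46 CPM. LRRN4, a leucine-rich repeat protein of the mesothelial surface, was at 700 CPM in N 22-5 and 638 CPM in N 22-9. A 22-11 followed at 119 CPM, A 22-16 at 52.1 CPM and A 23-62 at 28.9 CPM. In the other 8 N clones LRRN4 had at most 4 counts, so the N clones held both its highest and some of its lowest levels.

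The 2 transcription factors followed another order. WT1, a zinc-finger factor of mesothelium and of the developing kidney and gonad, was at 258 CPM in N 22-9 and 206 CPM in N 22-5, close to N 23-22 at 177 CPM, N 23-10 at 148 CPM and N 23-74 at 137 CPM. A 23-108 was the highest A clone at 98.1 CPM. In animal 22 even N 22-17, with 0 counts of KRT8, KRT19, LRRN4 and BNC1, had 961 WT1 counts (43.1 CPM). WT1 had 0 counts in N 22-18 and in all 4 clones of animals 17 and 20. BNC1, a zinc-finger factor of squamous and mesothelial cells, was at 229 CPM in N 22-9 and 222 CPM in N 22-5. It was at 27.7 to 39.3 CPM in N 23-10, N 23-22 and N 23-74, and among A clones at 35.8 CPM in A 22-11 and 25.9 CPM in A 22-16. BNC1 had 0 counts in the 4 clones of animals 17 and 20 and in N 22-17 and N 22-18.

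**Figure D3:**
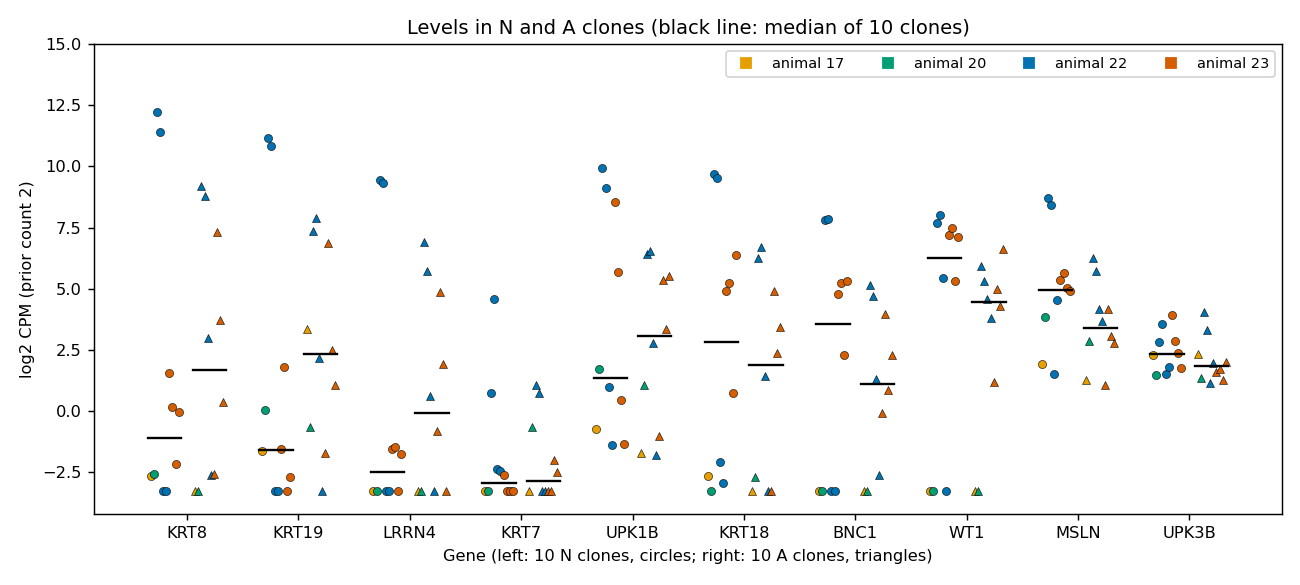
Level of each gene in the 10 N clones (circles, left) and 10 A clones (triangles, right), as log2 CPM with a prior count of 2 and coloured by animal, with the median of each group as a black line. The groups overlap for all 10 genes, and 2 N clones of animal 22 lie above all other clones for KRT8, KRT19, LRRN4, KRT18 and BNC1.

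The first comparison asked whether A and N clones differed in these genes. In edgeR's quasi-likelihood test with the animal as a block, 8 of the 10 genes passed the filter on low counts, and KRT7 and LRRN4 did not. Of those 8, 1 was called at an adjusted p under 0.05 over all 12900 genes tested, against 20.6% of all genes. That gene, MSLN, fell by 1.97 on the log2 scale in A clones (SE 0.645, edgeR adjusted p = 0.0393), with a mean of 20.3 CPM ± 24.4 (SD, n = 10) in A clones and 95.9 CPM ± 152 (SD, n = 10) in N clones. Calls lower in A clones made up 10.3% of all genes, and calls higher in A clones 10.3%. The mean log2 level of MSLN was lower in A than in N clones in all 4 animals.

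The MSLN call was close to the threshold and depended on which clones were used. Without N 22-5 and N 22-9 the log2 difference was -0.91 (edgeR adjusted p = 0.393). These were the 2 highest clones for MSLN, and leaving them out by itself moves the value towards A clones. Leaving out any 1 clone gave -2.18 to -1.69, with adjusted p from 0.0106 to 0.0725, and 12 of these 20 fits lost the call. Those were the fits without N 22-5, N 22-9, N 23-10, N 23-22, N 23-23, N 23-74, A 22-16, A 22-27, A 22-121, A 23-14, A 23-68 or A 23-108. Within animals the values were -2.32 in animal 22 (adjusted p = 0.37) and -2.13 in animal 23 (adjusted p = 0.0593), both from edgeR. The call held without all 8 clones of animal 22, N 22-5 and N 22-9 among them (-1.72, edgeR adjusted p = 0.0414), and with DESeq2 and the animal as a block (-1.95, adjusted p = 0.00407). It was lost with limma-voom (-1.44, adjusted p = 0.242).

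The other genes did not pass the test, although the means of several differed more than those of MSLN. KRT18 was at 170 CPM ± 321 (SD) in the 10 N clones and 22.8 CPM ± 37.0 (SD) in the 10 A clones, a log2 difference of -2.38 with an SE of 1.39 (edgeR adjusted p = 0.225). BNC1 was at 56.0 ± 90.7 and 8.71 ± 12.8 CPM, with a log2 difference of -2.53 (SE 1.27, edgeR adjusted p = 0.162). UPK1B was at 196 ± 336 and 28.6 ± 36.4 CPM, with -2.37 (SE 1.34, edgeR adjusted p = 0.21). WT1 was at 101 ± 95.9 and 29.0 ± 31.0 CPM, with -1.79 (SE 0.892, edgeR adjusted p = 0.16). UPK3B had the smallest difference, -0.36 (SE 0.419, edgeR adjusted p = 0.56). The median log2 difference of the 8 tested genes was -1.88, against -0.01 over all genes tested. That median was -0.45 without N 22-5 and N 22-9, with KRT18 at -0.10, BNC1 at -0.63, UPK1B at -0.64 and WT1 at -0.87. Leaving out these clones, the 2 highest for each of the genes just named, by itself moves the values towards A clones. With limma-voom and all clones the median was -0.34, with KRT18 at -0.83, BNC1 at -0.82, UPK1B at -0.07 and WT1 at -0.56.

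For KRT8 and KRT19 even the direction was not settled. KRT8 had means of 751 CPM ± 1650 (SD) in N clones and 121 CPM ± 216 (SD) in A clones, yet the blocked edgeR value was 0.72 (SE 3.26, adjusted p = 0.893), higher in A clones. KRT19 likewise had means of 407 ± 864 and 53.4 ± 85.7 CPM and a blocked value of 1.16 (SE 2.96, edgeR adjusted p = 0.806). The median clone went with the fitted sign, at 0.497 CPM of KRT8 in N and 4.53 CPM in A clones, and at 0.227 and 4.94 CPM of KRT19. With condition alone and no block, edgeR gave -2.63 for KRT8 and -2.93 for KRT19, whereas DESeq2 gave 2.56 (adjusted p = 0.196) and 3.46 (adjusted p = 0.0514). The DESeq2 values had the opposite sign to the group means. Its default replacement of outlying counts was left on, and the part of that setting in these values was not tested. Without N 22-5 and N 22-9 the blocked edgeR value of KRT8 was 6.60 (adjusted p = 0.0458), higher in A clones. That of KRT19 was 5.76 (edgeR adjusted p = 0.0546). KRT8 averaged 0.619 CPM ± 0.982 (SD) in the other 8 N clones. Both clones were left out for their high levels of these same genes, which by itself moves the values towards A clones. These p-values are thus a description and not a test.

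LRRN4 had means of 134 CPM ± 283 (SD) in N clones and 20.6 CPM ± 38.8 (SD) in A clones. Fitted with no filter, its log2 difference was 0.32 (SE 2.86, edgeR adjusted p = 0.961). KRT7 had means of 2.55 ± 7.45 and 0.432 ± 0.736 CPM, and -1.31 with no filter (SE 1.55, edgeR adjusted p = 0.592). For none of the 10 genes did all A clones lie on 1 side of all N clones, against 0.318% of the 12900 genes tested.

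**Figure D4:**
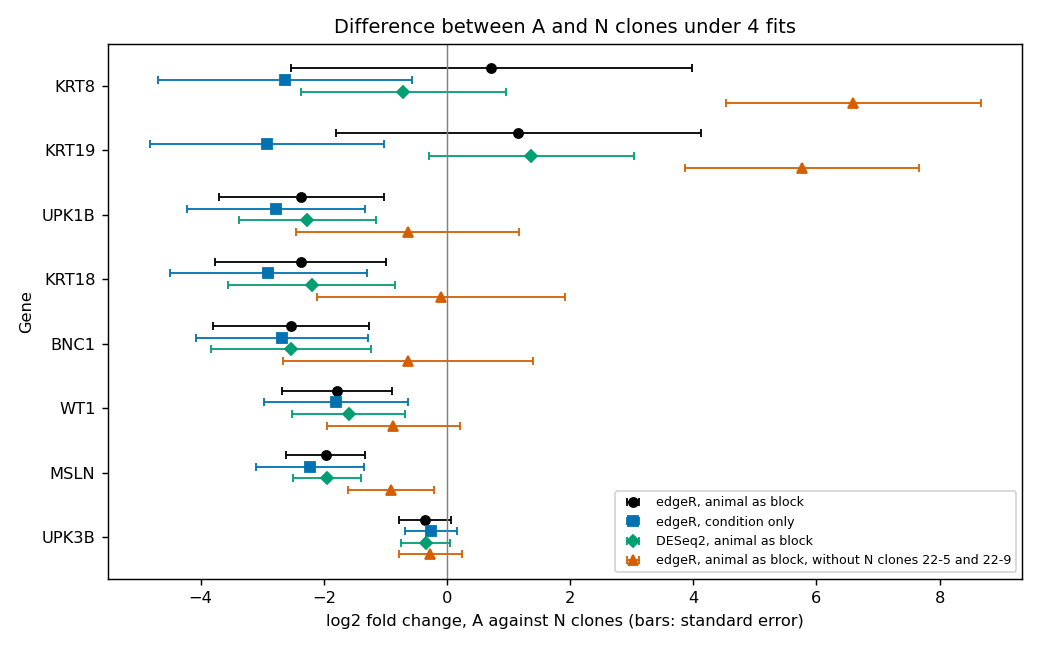
Log2 fold change of A against N clones (x axis) for the 8 genes that passed the filter (y axis), with standard errors as bars, from 4 fits. The values of KRT8 and KRT19 lie on both sides of 0, and leaving out N 22-5 and N 22-9 moves all values except that of UPK3B by more than 0.5.

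The spread between clones that was left after type and animal were fitted was itself extreme. It includes any change of the A against N difference between animals. The biological coefficient of variation in the edgeR fit was 2.40 for KRT19 and 2.33 for KRT8, which ranked 1 and 2 of the 12900 genes. KRT18 ranked 8 at 1.89, BNC1 26 at 1.69 and UPK1B 39 at 1.62. WT1 was at 1.2, MSLN at 0.882 and UPK3B, the least variable, at 0.619. The median of the 8 genes was 1.65 against 0.256 over all genes, and it was 1.66 without N 22-5 and N 22-9. KRT8 ranked 2 and KRT19 ranked 4 of 13114 genes in that fit. In RNA from a whole clone, fewer cells making a gene and less RNA per cell cannot be told apart.

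The second comparison was between the 4 animals, in the same fit. WT1 was the 1 of 8 genes called (edgeR adjusted p = 0.0398), against 4.60% of all genes. Its 8 clones of animal 23 ran from 2.16 to 177 CPM, 7 of the 8 clones of animal 22 from 14.0 to 258 CPM, and all 4 clones of animals 17 and 20 had 0 counts. The adjusted p was 0.0532 for MSLN, 0.11 for KRT18, 0.126 for KRT8 and 0.139 for BNC1. BNC1 and LRRN4 also had 0 counts in the 4 clones of animals 17 and 20. The WT1 call was lost in 14 of the 20 fits that left out 1 clone, with adjusted p from 0.00493 to 0.0988, and without N 22-5 and N 22-9 (adjusted p = 0.0502). It held only without N 22-5, N 22-18, A 22-121, A 23-14, A 23-62 or A 23-108. The region of fat sampled is not given per animal, so animal and depot cannot be told apart. Nor can the animal and the conditioned medium made from its own cells. Of the 3 endothelial markers tested, 2 were also called between animals, VWF (edgeR adjusted p = 0.0377) and TEK (edgeR adjusted p = 0.0498). VWF was at 26.1 and 30.1 CPM in N 17-23 and N 20-15, at 11.6 and 13.4 CPM in A 17-57 and A 20-106, and at no more than 6.75 CPM in the clones of animals 22 and 23, with a rho of -0.82 with WT1. TEK had a rho of -0.61 with WT1. Their part in the WT1 difference was not tested.

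Whether the A against N difference itself differed between animals 22 and 23 was tested as an interaction in their 16 clones. None of the 8 genes was called by edgeR or by DESeq2, against 0.0310% of the 12915 genes tested in edgeR, and 1 of the 8 had an unadjusted p under 0.05. That gene was KRT19, with a difference of 8.46 between the log2 values of animal 23 and animal 22 (SE 3.78, edgeR adjusted p = 0.535), and KRT8 was at 8.01 (SE 3.79, adjusted p = 0.557). With 1 clone left out these values ran from 4.89 to 11.62 for KRT19 and from 4.84 to 8.85 for KRT8. They turned to -8.84 for KRT19 (SE 6.43, edgeR adjusted p = 0.6) and -10.18 for KRT8 (SE 6.23, edgeR adjusted p = 0.523) without N 22-5 and N 22-9. N 22-17 and N 22-18, the N clones of animal 22 then left, had 0 counts of both genes. These turned values thus rest on a level of 0. In animal 22 KRT8 averaged 1880 CPM ± 2320 (SD, n = 4) in N and 260 CPM ± 301 (SD, n = 4) in A clones. In animal 23 it averaged 1.21 CPM ± 1.15 (SD, n = 4) in N and 43.3 CPM ± 77.3 (SD, n = 4) in A clones.

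The genes varied together over the 20 clones. All 28 pairs among the 8 genes that passed the filter had a positive Spearman rho of log2 CPM, from 0.33 to 0.90 with a median of 0.69. An adjusted p under 0.05 over the 28 pairs was reached by 25 of them (100000 permutations, two-sided). These p-values treat clones as independent although 16 of the 20 come from 2 animals, and the genes were grouped with earlier results known, so they serve as a description. KRT18 and BNC1 had the highest rho, 0.90, with Pearson's r of 0.97 and of 0.96 without N 22-5 and N 22-9 (permutation p = 1e-05 for both measures, the smallest that the permutations can give). WT1 and BNC1 had a rho of 0.89 and an r of 0.84 (permutation p = 1e-05 for both), and an r of 0.80 without N 17-23 and N 20-15. KRT19 with WT1 had a rho of 0.36 and an r of 0.38, which fell to 0.20 without N 22-5 and N 22-9 (permutation adjusted p = 0.118 and 0.103).

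Within subsets the median rho was 0.74 in A clones, 0.77 in N clones, 0.86 in the 8 clones of animal 22 and 0.48 in the 8 clones of animal 23. Without N 22-5 and N 22-9 it was 0.58. In animal 23, 23 of the 28 pairs were positive and none passed the adjusted exact permutation test, with 7 at an unadjusted p under 0.05. KRT8 with KRT19 was at 0.83 there and KRT18 with BNC1 at 0.90, but KRT8 with KRT18 was at 0.33, KRT8 with BNC1 at 0.10 and KRT8 with WT1 at 0.05. In animal 22 the same 3 pairs were at 0.90, 0.98 and 0.79. The clones of animal 23 thus ordered KRT8 and KRT19 one way and KRT18, BNC1 and WT1 another. The difference between the animals was not tested.

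Genes outside the 10 that ranked the clones most alike were found by Spearman rho over the 20 clones among all genes that passed the filter, as a description. For KRT8 these were PODXL (rho 0.90), NINL, MAML3, C3H1orf226 and NET1 (0.85), of which PODXL encodes podocalyxin, a sialomucin of apical membranes. For KRT18 they were PLS1 (0.91), SYNPO2L, PPP2R1B, ADAMTS3 and GATA5 (0.88), and for KRT19 COL4A5 (0.86), ATP9A, ARSB, PODXL and DLGAP3 (0.78). PLS1 encodes plastin 1, an actin-bundling protein of microvilli, and COL4A5 a chain of basement membrane collagen. For WT1 they were TYRO3 (0.94), BAMBI, WNT4, PLD3 and SYNPO2L (0.89), and for BNC1 WISP1 (0.94), BAMBI, WNT4, LOC518768 and HMGA1 (0.90). For UPK1B they were NINL (0.86), HTATIP2, FBP2, PLS1 and CDC42EP2 (0.78), and for MSLN LOC112449367 (0.88), ESYT3, C23H6orf47, WISP1 and AACS (0.82). UPK3B had the lowest likeness, led by PLPP6 (0.76), ANKRD40, DDX28, TSTA3 and SLC9A3R1 (0.74). Among the 100 genes most like each gene, of 12899 compared, there were 6 of the other 7 for UPK1B, 5 for KRT8 and for KRT18, 4 for BNC1, 3 for MSLN, 2 for KRT19 and for WT1, and 1 for UPK3B.

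Further mesothelial genes were read from a list of 16, of which 15 were in the table and 4 passed the filter. TBX18, a T-box factor of the epicardium, was the 1 called and was higher in A clones by 1.04 on the log2 scale (SE 0.359, edgeR adjusted p = 0.0491), and none was called lower. DESeq2 and limma-voom each called 2 genes of the list higher. Over all 12900 genes they called 3528 and 2707 in either direction, with the animal as a block. Without N 22-5 and N 22-9 none of the 5 then tested was called by edgeR, against 1859 of all 13114 genes. TBX18 had a rho of -0.48 with KRT8 and of -0.67 with WT1, and was lowest in N 22-5 at 17.7 CPM. The median rho of the 4 genes with KRT8 was 0.60, against -0.01 over all genes, but with WT1 it was 0.22, against 0 over all genes.

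Of the 11 list genes with at least 1 clone at 1 CPM or more, 5 were higher in both N 22-5 and N 22-9 than in each of the other 18 clones. Genes of this kind, and the values that follow, were picked out after they were seen. The share of all genes that rank this way was not counted, so the 5 of 11 cannot be read as particular to this list. CRB2, a polarity protein, was at 410 and 312 CPM in N 22-5 and N 22-9 and at no more than 26.0 CPM elsewhere. GPM6A, a membrane glycoprotein, was at 30.9 and 164 CPM against at most 23.2 CPM. ALDH1A2, which makes retinoic acid, was at 69.5 and 71.1 CPM against at most 13.0 CPM, and CLDN15, a claudin, at 139 and 132 CPM against at most 43.3 CPM. The fifth, PKHD1L1, reached only 1.52 CPM. Other genes of the list were highest in an A clone. PDPN, the membrane mucin podoplanin, was at 114 CPM in A 22-11 against 19.9 and 7.86 CPM in N 22-5 and N 22-9, with a log2 difference of 2.59 between A and N clones (SE 1.0, edgeR adjusted p = 0.0736). The complement gene C3 was at 539 CPM in A 22-11, 226 CPM in N 22-9 and 5.25 CPM in N 22-5. MUC16, the CA125 mucin that binds mesothelin, was highest in N 22-9 at 49.8 CPM and was at 4.74 CPM in N 22-5. Other defining markers were absent or nearly so, with no more than 1 count of CALB2, RSPO1 or NKAIN4 in any clone. The symbol ITLN1 was not among the counted genes, so its level is not known. The summed level of the list ran from 39.4 to 997 CPM in N clones and from 89.4 to 805 CPM in A clones.

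**Figure D5:**
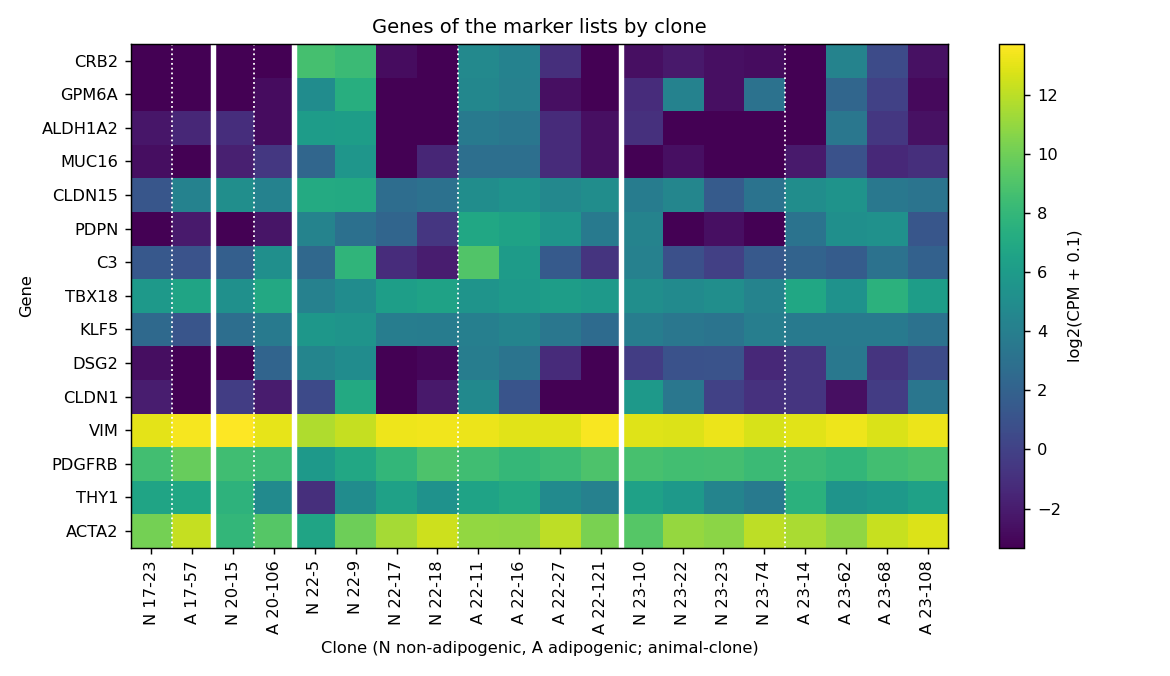
Level of 15 genes of the marker lists (rows) in the 20 clones (columns), as log2 of CPM plus 0.1, with clones ordered as animals 17, 20, 22 and 23. The genes were picked after their values were seen. CRB2 is at 410 and 312 CPM in N 22-5 and N 22-9, and VIM is at 3270 CPM or more in all clones.

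Epithelial genes beyond the keratins varied in level. Of 20 junction and adhesion genes 10 passed the filter and none was called between A and N clones by edgeR, with 2 at an unadjusted p under 0.05, 1 called higher by DESeq2 and 1 called lower by limma-voom. CDH1, which encodes E-cadherin, reached at most 7.96 CPM in N 22-5, and EPCAM, the epithelial cell adhesion molecule, at most 0.94 CPM in A 22-11. Other genes of the list were higher, with JUP at 107 to 543 CPM and SPINT2 at 17.0 to 55.3 CPM. CGN reached 69.4 CPM in N 22-5 and CLDN1 129 CPM in N 22-9. DSG2 was at 22.0 and 31.8 CPM in N 22-5 and N 22-9, against at most 15.0 CPM elsewhere. Of the 10 tested genes 6 were highest in N 22-5 or N 22-9, against 2166 of all 12900 genes tested. Without N 22-5 and N 22-9, 2 of the junction and adhesion genes were called higher in A clones by edgeR. In that fit 1859 of all 13114 genes were called in either direction. Where 1 of these clones was the highest for a gene, leaving them out by itself moves its value towards A clones. The 2 calls are thus a description and not a test. The median rho of the 10 tested genes with KRT8 was 0.28, against -0.01 over all genes, and with WT1 it was 0.17, against 0. The summed level of this list was 227 to 651 CPM in N and 216 to 629 CPM in A clones. Of 8 epithelial transcription and splicing factors 2 passed. ESRP2, an epithelial splicing regulator, fell by 1.57 on the log2 scale in A clones (SE 0.491, edgeR adjusted p = 0.0323) but reached only 7.45 CPM. Without N 22-5 and N 22-9 neither gene of this list was called. N 22-5 was the highest clone for both genes, so leaving it out by itself moves their values towards A clones. KLF5, a Krueppel-like factor, was at 52.9 and 45.5 CPM in N 22-5 and N 22-9 and at most 20.6 CPM elsewhere, and was not called (edgeR adjusted p = 0.194). GRHL2, OVOL1, OVOL2 and TP63 were each at or below 0.131 CPM.

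Keratins other than the 4 members numbered 51, and 29 of them had 0 counts in all clones. A level of 1 CPM in at least 1 clone was reached by 6, and 10 CPM by 1, KRT80, at 34.8 CPM in N 22-17 and not called (edgeR adjusted p = 0.522). Of the 9 stratified and basal keratins listed, KRT10 alone passed the filter, at 0.600 to 3.38 CPM, and it was not called by edgeR, DESeq2 or limma-voom, nor at an unadjusted p under 0.05. KRT5 and KRT14, the keratins of basal cells, were at most at 0.0657 and 0.0723 CPM. The urothelial genes UPK1A, UPK2, UPK3A and UPK3BL1 summed to at most 0.630 CPM, so UPK1B and UPK3B were counted without the other uroplakins.

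The labelled cell type was checked against 10 fibroblast and mesenchymal markers, all of which passed the filter. VIM, the mesenchymal intermediate filament, was at 3270 to 13600 CPM and lowest in N 22-5. COL1A1 was at 6280 CPM or more in every clone and was also lowest in N 22-5. PDGFRB was lowest in N 22-5 at 59.6 CPM, against a median of 368 CPM, and THY1 was at 0.395 CPM there against a median of 60.1 CPM. Other genes of the list were not low in N 22-5, with COL1A2 at 18900 CPM against a median of 15800 CPM and PDGFRA at 167 CPM against a median of 156 CPM. The summed level of the list was 31200 CPM in N 22-5 and 27200 CPM in N 22-9, within a range of 27200 to 50000 CPM in N and 39300 to 61500 CPM in A clones. COL3A1, a fibrillar collagen, rose in A clones by 0.93 (SE 0.236, edgeR adjusted p = 0.0126), and no other gene of the list was called.

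Other cells of fat were looked for by their markers. None of 7 macrophage genes passed the filter, with summed levels of 0.146 to 7.92 CPM in N and 0.806 to 7.70 CPM in A clones, and C1QA and C1QB had 0 counts throughout. Of 6 endothelial genes 3 passed and none was called between A and N clones by edgeR, with 1 at an unadjusted p under 0.05 and 1 called higher by DESeq2. Their sum was lowest in N 22-5, at 1.07 CPM, and at most 41.3 CPM. Of 6 mature adipocyte genes 4 passed, and PLIN1, which coats lipid droplets, rose in A clones by 0.53 (SE 0.178, edgeR adjusted p = 0.0456). The sum was 5.65 CPM in N 22-5, the lowest, and 6.72 CPM in N 22-9, within 5.65 to 32.2 CPM in N and 9.50 to 30.8 CPM in A clones. Of 6 smooth muscle and pericyte genes 5 passed and MYH11, a smooth muscle myosin, rose in A clones by 3.04 (SE 1.05, edgeR adjusted p = 0.0484). DESeq2 and limma-voom each called 4 of these genes higher, and edgeR called none without N 22-5 and N 22-9. Over all 12900 genes DESeq2 with the animal as a block called 3528 in either direction, and limma-voom 2707. Without N 22-5 and N 22-9 edgeR called 1859 of 13114 genes in either direction. The sum of the smooth muscle and pericyte list was also lowest in N 22-5, at 1080 CPM, against up to 9970 CPM in N and 4060 to 11300 CPM in A clones. Leaving out this low N clone by itself makes a rise in A clones smaller. The part of these lists in the levels of the 10 genes was not tested.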

How the data were processed

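Directional, paired-end libraries of 20 undifferentiated clones were sequenced by the authors and deposited as raw read counts per gene. Per the labels and the study's methods, reads were split with bcl2fastq 2.20, trimmed with Trimmomatic 0.36, aligned with STAR 2.5.2b to ARS-UCD1.2, and unique exonic reads counted with featureCounts of Subread 1.5.2. The strand setting of the counting is not given in the sources used here, so reads of overlapping antisense genes may be included. In the ARS-UCD2.0 annotation a lncRNA overlaps BNC1 and a tRNA UPK3B.

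The row with no gene name (0.113 to 0.333% of counts) was left out, and 0 columns belonged to other samples. Groups were taken from the labels. Counts were analysed in R 4.3.3 with edgeR 4.0.16 (TMM, default filter by condition, robust quasi-likelihood F test, animal as block) and adjusted over all genes by Benjamini-Hochberg. Standard errors are the log2 fold change divided by the square root of F. Levels on the log2 scale use a prior count of 2. DESeq2 1.42.0 and limma-voom (limma 3.58.1) were alternatives, beside other scalings, filters, left-out clones and animals. Pairs of genes were tested by permutation, exactly for 8 clones. The code was tested on simulated data, whose spread between clones was capped below that of each of the 8 tested genes. The simulation thus does not show how the tests perform on genes this variable.

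The block follows from the animal in the labels. The deviations of A and N clones from their group means correlated within each animal, at 0.253, 0.193, 0.241 and 0.440. Clones were separate cultures but share 4 animals, so p-values measure the spread between clones. None of the 90 pairs of libraries of the same type agreed within sampling noise. The 10 genes and the marker lists were chosen with earlier results of these data known. All 10 genes are named, with the genes of each list called in A against N clones, each list's defining markers, the 5 genes most like each tested gene, and other keratins that reach 10 CPM. No sequence or coordinate is given.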

Additional observations from a re-analysis of the deposited data

Results flagged for a closer look

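Within groups of 4 or 10 clones, a clone was set apart when its gap to the nearest other clone, divided by the range of the group, passed Dixon's 95% critical value. Of 62 groups examined 6 were set apart, against 3.1 that chance would give, since chance sets apart about 1 in 20 groups.

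Among the 10 N clones, KRT7 was set apart in N 22-9 by a ratio of 0.488, with 395 counts against 28 in the next clone. The total count of the N clones was set apart in N 22-18 by 0.698, at 43111345 counts. That library had 0 counts of WT1, BNC1, KRT8, KRT19 and LRRN4.

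The other 4 were in the 4 N clones of animal 23. N 23-23 was the low clone for WT1 (ratio 0.831, 39.1 CPM against 137 to 177 CPM), for BNC1 (0.833, 4.8 CPM against 27.7 to 39.3 CPM) and for LRRN4 (0.855, 0 counts against 4 counts in each of the others). It was also the lowest of the 4 for KRT18, at 1.56 CPM. KRT7 had a ratio of 1.0 in N 23-10, which rests on 1 count against 0 in the other 3 clones.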

How the results depend on the processing

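The number of the 8 genes called between A and N clones was 1, and it was 0 with no filter on low counts, with no replicate block, with limma-voom, in animal 22 alone, in animal 23 alone and without the clones of animal 23. It ran from 0 to 2 when 1 clone was left out. Without animal 23 only 5 of the genes were tested, MSLN among them. All 10 genes were tested with no filter and in animal 22 alone. The 2658 genes called in all became 2168 with no replicate block, 153 in animal 22 alone, 800 in animal 23 alone, 1471 without animal 22 and 32 without animal 23. In the animal test, 593 genes became 386 when 10 counts were asked of every clone and 1710 with DESeq2. The 1 gene of the 8 became 0 with no filter, 2 without robust dispersion and 5 with DESeq2 (WT1, MSLN, BNC1, KRT8 and KRT18). It became 0 without N 22-5 and N 22-9, and 0 to 2 when 1 clone was left out. With 10 counts in every clone only MSLN and UPK3B were tested, and neither was called. WT1 had 0 counts in 5 clones, so that filter removed it and its call could not be tested there. In the interaction, 4 genes became 2 with 10 counts in every clone, 116 with DESeq2, 14 without N 22-5 and N 22-9, and 0 to 11 when 1 clone was left out. Of the 28 pairs, 25 passed over all clones, 16 within A clones and 0 within animal 23.

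Directions reversed as follows. The log2 difference of KRT8 was -0.71 with DESeq2 and the animal block, -2.63 with no block and -2.86 in animal 22 alone, and that of KRT19 was -2.93 with no block, -3.35 in animal 22 alone and -2.36 without animal 23. UPK3B was at 0.39 in animal 22 alone and 0.25 without animal 23. When 1 clone was left out KRT8 ran from -0.80 to 2.02 and KRT19 from -0.73 to 2.13. The interaction without N 22-5 and N 22-9 was -10.18 for KRT8, -10.98 for KRT18, -8.84 for KRT19, -3.71 for MSLN, -7.66 for UPK1B, -2.42 for WT1 and -13.58 for BNC1. N 22-17 and N 22-18, the N clones of animal 22 then left, had 0 counts of KRT8, KRT19 and BNC1. They had 3 and 1 counts of KRT18. The values of these 4 genes thus rest on levels at or near 0. With 1 clone left out the interaction ran from -0.61 to 1.32 for BNC1, -0.49 to 0.70 for MSLN, -0.13 to 3.49 for UPK1B and -0.94 to 0.57 for WT1. Within animal 23, rho was -0.10 for KRT8 with UPK3B, -0.29 for KRT19 with UPK3B, and -0.10 for KRT19 with MSLN, with WT1 and with BNC1. The cause of these changes was not tested.

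WT1 was called lower in A clones without N 22-18 (edgeR adjusted p = 0.0315). MSLN kept its direction in all 36 alternatives. Single-clone values at 0 or 1 count limit KRT7 and LRRN4 most, and animals 17 and 20 have 1 clone of each type.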
